A study of Mus musculus with 59 samples.

Results

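Of 9 differentiation runs of mouse embryoid bodies, 4 were compared here, the pair of runs with the highest and the pair with the lowest mean signal of Olig2, a transcription factor of spinal motor neuron progenitors. Embryoid bodies are floating aggregates of differentiating embryonic stem cells, and these were made from the HGB3 line, whose HB9-eGFP reporter marks motor neurons, with retinoic acid and a hedgehog agonist. The runs were chosen by their measured mean Olig2 over arrays and hold 28 of the 59 arrays of the series. The Olig2-high side has 18 arrays, 7 titled motorneuron_ and 11 of run C (titles HB9EBs_NCAR114 to the last array of that number range), and the Olig2-low side has 10 arrays, 4 titled HB9MNs_ and 6 with 10wk in their titles, called the 10-week run here. All embryoid bodies were of this stem cell line and all had 24 h with mouse serum. The serum came from male mice hemizygous for a mutant human SOD1 transgene (called carriers here) or from their non-carrier littermates, F1 progeny of C57BL/6 and SJL. Both sera were on each side: 9 carrier and 9 non-carrier arrays among the Olig2-high, 5 and 5 among the Olig2-low. The labels give 9 weeks for the motorneuron, C and HB9MNs arrays and 10 for the others. They call this the time of culture, but by the study's methods serum was added 6 days after differentiation, whereas the mice that gave it were of about that age in weeks, before symptoms. No culture was thus weeks old, and the 10-week label, whatever it dates, cannot be told apart from its run. The labels name no batch; a run is a set of arrays that share a title stem or number range, and run C, with 11 arrays against stated batches of 6 or 8, holds more than 1 batch. All differences between runs are confounded with batch, and no label says whether arrays of a run came from separate cultures, so their spread may be technical.

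In the ventral spinal cord, Sonic hedgehog from the notochord and floor plate sets progenitor domains along the dorsoventral axis. Olig2 marks the domain that yields motor neurons. The domain below it carries Nkx2-2 and Nkx2-9 and lies next to the floor plate, which makes Shh and Foxa2, while domains above it yield interneurons such as the V2b class, marked by Gata3. As progenitors leave the cell cycle they lose Olig2 and switch on Isl1, Mnx1 and Lhx3, the transcription factors of young motor neurons. Embryoid bodies hold all these cells at once. In such bulk RNA, fewer cells of a type and less RNA per cell cannot be told apart.

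Olig2 had the following log2 intensities. The 7 motorneuron arrays ran from 8.84 over a median of 9.16 to 9.35, and the 11 arrays of run C from 8.87 over 9.04 to 9.19. The 4 HB9MNs arrays were at 8.56, 8.48, 8.39 and 8.37, and the 6 10-week arrays ran from 8.30 over 8.36 to 8.44. Every Olig2-high array lay above every Olig2-low array, which the choice of runs all but fixes, so no test is given. The means were 9.13 ± 0.18 (SD, n = 7), 9.03 ± 0.10 (n = 11), 8.45 ± 0.09 (n = 4) and 8.36 ± 0.05 (n = 6). The 4 differences between an Olig2-high and an Olig2-low run were 0.58 to 0.77, with a mean of 0.68 or 1.60-fold. The gradation was continuous: run D, next below the Olig2-high side, had a mean of 9.02 ± 0.09, 0.01 below run C, and run F, next above the Olig2-low side, had 8.64 ± 0.08.

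The other markers given with the runs did not follow Olig2. Isl1 was at 10.44 ± 0.12 in the motorneuron run, 10.54 ± 0.10 in C, 10.77 ± 0.04 in HB9MNs and 10.48 ± 0.04 in the 10-week run, so that the HB9MNs run stood highest and the others overlapped. Its 4 differences ran from -0.32 to 0.05. Mnx1, which encodes HB9, was at 8.83 ± 0.13, 8.96 ± 0.15, 9.00 ± 0.20 and 8.83 ± 0.05 in the same order, with differences from -0.17 to 0.12. Lhx3 was at 9.14 ± 0.09, 9.27 ± 0.15, 9.12 ± 0.05 and 8.98 ± 0.04, with differences of 0.02 to 0.29, all above 0. For each of these 3 genes the arrays of the sides overlapped. The progenitor list described below did not part the sides either, with 2 of 18 genes higher in all 4 pairs, 2 lower and a median of 0.01, so a name of progenitor-rich and progenitor-poor runs is not borne out. The runs are therefore called Olig2-high and Olig2-low.

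**Figure D1:**
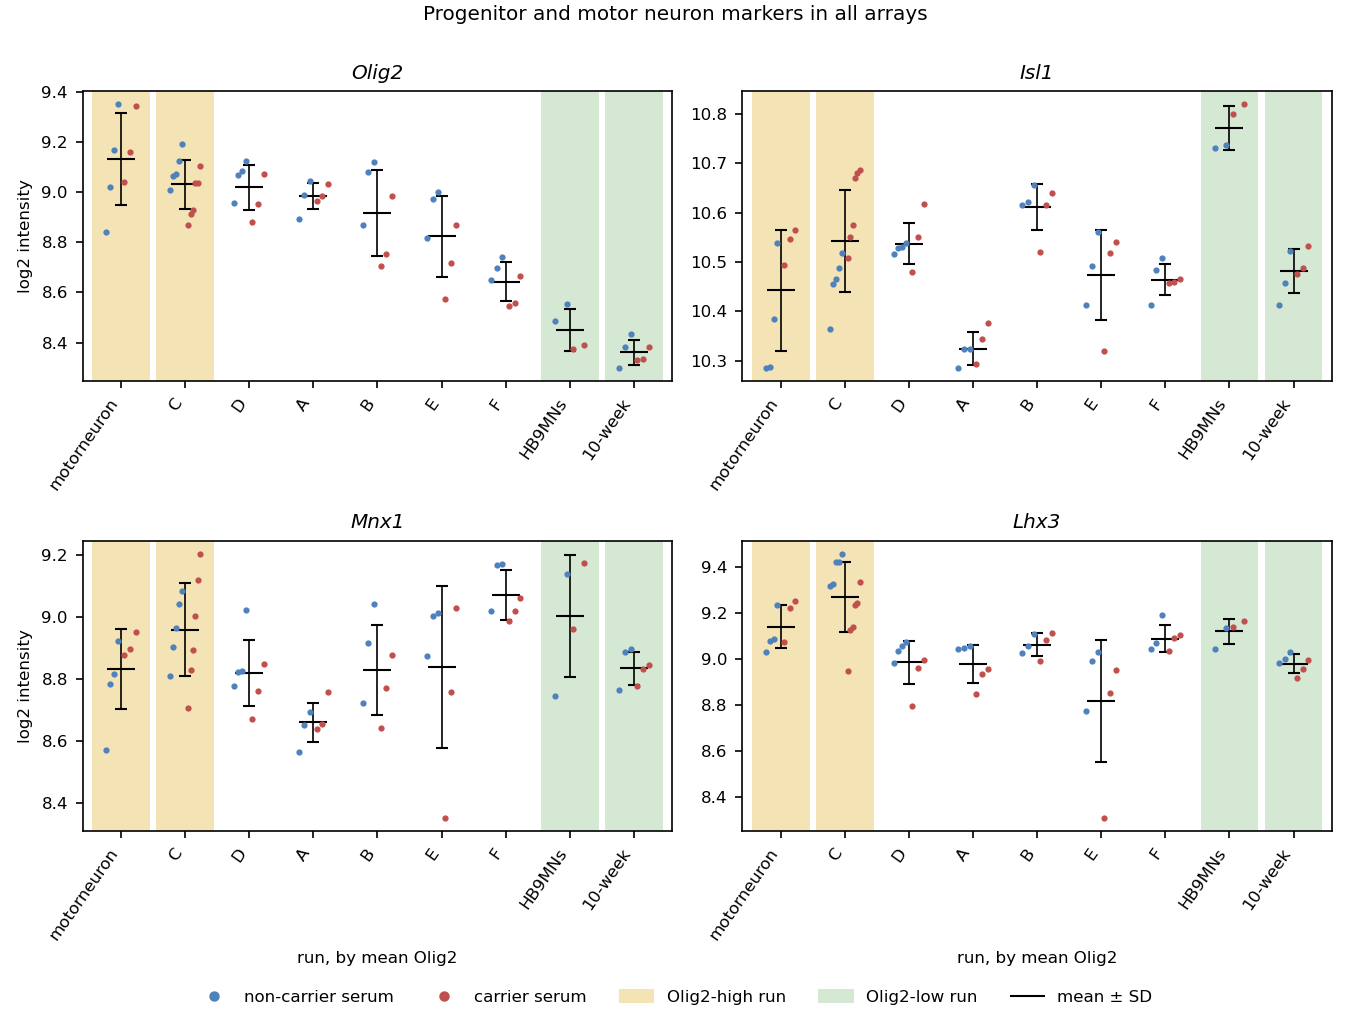
Log2 intensity of Olig2, Isl1, Mnx1 and Lhx3 (y axes) in each of the 59 arrays by run (x axes, ordered by mean Olig2), with non-carrier serum in blue and carrier serum in red and the mean ± SD of each run in black. Olig2 descends from 9.13 to 8.36 by construction of the order, whereas Isl1 is highest in the HB9MNs run at 10.77 and Mnx1 and Lhx3 show no such descent.

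The motorneuron run stood apart from all others in its signal. The median intensity of its arrays was 164 to 183, against 151 to 168 in the other 8 runs. Against run C, on its own side, the median gene was 0.20 higher on the log2 scale. That shift was 0.43 in the 6538 dimmest genes, 0.17 in the 6537 genes of middle level and -0.06 in the 6538 brightest. Of 19613 genes, 5478 differed by at least 0.5 between the motorneuron run and C, more than between C and HB9MNs (410), C and the 10-week run (775), motorneuron and HB9MNs (2425) or motorneuron and the 10-week run (4665). HB9MNs and the 10-week run, also on 1 side, differed in 1333, more than either differed from C and fewer than either from the motorneuron run. The mean of the 4 differences exceeded both differences within sides in 1198 genes (6.11%), 757 of them higher in the Olig2-high runs. Over all genes the median of the mean difference was 0.08, 0.01 after quantile normalization and -0.03 without the motorneuron run, and list medians are to be read against these values.

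A gene was counted when all 4 differences between an Olig2-high and an Olig2-low run were at least 0.5 in the same direction. By that rule 2 genes were higher (0.0102% of all genes), Olig2 itself and Bcl6, and 2 were lower (0.0102%), Loxl2 and Nkx2-9. At a size of 0.25 there were 42 higher (0.214%) and 16 lower (0.0816%), and at any size 1629 higher (8.31%) and 923 lower (4.71%). In 32 genes all 18 Olig2-high arrays lay above all 10 Olig2-low arrays (0.163%), and in 15 genes all lay below (0.0765%). These shares come from the contrast that chose the runs and are a description. The counts depended on the runs. With 1 run left out, only 2 pairs in place of 4 had to pass, so that more genes can be counted. Without the motorneuron run 50 genes were then higher and 30 lower, and without run C 1361 and 228. Without HB9MNs there were 84 and 275, and without the 10-week run 25 and 16. The lower count was 1 when any of the following single arrays was left out: motorneuron non-carrier replicate 4, motorneuron carrier replicate 3, HB9MNs non-carrier replicate B or HB9MNs carrier replicate A. In each of these Nkx2-9 dropped out, as it did without HB9MNs carrier replicate B, where Emp1 passed in its place.

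Bcl6, a transcriptional repressor that in the developing cortex curbs Notch signalling and favours neuronal differentiation, was as far apart as Olig2 in the deposited values. The motorneuron arrays ran from 6.79 over 6.94 to 7.16 and run C from 6.75 over 7.04 to 7.23. The HB9MNs arrays were at 6.39, 6.41, 6.40 and 6.41, and the 10-week arrays ran from 6.13 over 6.23 to 6.37. All Olig2-high arrays lay above all Olig2-low arrays, with a gap wider than the spread of either low run. The differences were 0.57 to 0.78 (1.49-fold to 1.72-fold), with a mean of 0.68. With array medians set equal or after quantile normalization Bcl6 was no longer counted, whereas Olig2 still was. Across the other 5 runs Bcl6 did not keep to the order of Olig2: run A, at 7.42 ± 0.11, was above every compared run, the arrays of D ran from 6.72 to 7.16, and B, E and F were at 6.24 ± 0.27, 6.41 ± 0.56 and 6.27 ± 0.13.

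Nkx2-9, a homeodomain factor induced by hedgehog signalling in the most ventral progenitors, was lower in the Olig2-high runs. The motorneuron arrays ran from 7.92 over 8.16 to 8.33 and run C from 7.31 over 7.69 to 8.02. The HB9MNs arrays were at 8.48, 8.66, 8.71 and 8.72, and the 10-week arrays ran from 8.72 over 8.88 to 8.98. The sides did not overlap, and the gap between the highest Olig2-high array and the lowest Olig2-low array was narrow. The differences were -0.51 to -1.17, with a mean of -0.84 (1.79-fold lower). The smallest of them, -0.51, was that of motorneuron and HB9MNs. After quantile normalization Nkx2-9 no longer met the size of 0.5 in that pair.

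Loxl2, a lysyl oxidase homologue that crosslinks collagen, was lower as well, with arrays of 7.75 to 8.34 (median 7.97) in the motorneuron run and 7.42 to 8.47 (median 8.06) in C. The HB9MNs arrays were at 8.51, 8.67, 8.58 and 8.58, and the 10-week arrays ran from 8.98 over 9.06 to 9.24. The sides did not overlap, but run C reached to within 0.1 of the HB9MNs run and spread widely (SD 0.36). The differences were -0.57 to -1.10. With run C taken as 2 runs, Loxl2 was no longer counted.

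The promoters of the counted genes are shown because they are the regulatory sequence next to the genes whose level parted the runs. They run from 250 bases before to 50 bases after the transcription start, from RefSeq on GRCm38.p6, written 5′ to 3′ along the gene's strand. Loxl2 had no entry. Capitals mark a motif match. Olig2, chr16:91225300-91225599, plus strand, with TATAAA in capitals. Bcl6, chr16:23988803-23989102, minus strand, the first of 2 listed starts, with a match to TTCNNNGAA, the letters bound by BCL6 and by STAT factors. Nkx2-9, chr12:56613235-56613534, minus strand, with a match to CANNTG, the E-box bound by helix-loop-helix factors such as OLIG2.
Olig2: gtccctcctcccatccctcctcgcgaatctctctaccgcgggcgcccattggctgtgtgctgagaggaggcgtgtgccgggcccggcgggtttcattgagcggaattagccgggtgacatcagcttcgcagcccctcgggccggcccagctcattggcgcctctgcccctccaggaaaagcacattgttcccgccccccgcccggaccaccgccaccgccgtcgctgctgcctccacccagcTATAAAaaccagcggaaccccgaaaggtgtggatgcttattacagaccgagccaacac
Bcl6: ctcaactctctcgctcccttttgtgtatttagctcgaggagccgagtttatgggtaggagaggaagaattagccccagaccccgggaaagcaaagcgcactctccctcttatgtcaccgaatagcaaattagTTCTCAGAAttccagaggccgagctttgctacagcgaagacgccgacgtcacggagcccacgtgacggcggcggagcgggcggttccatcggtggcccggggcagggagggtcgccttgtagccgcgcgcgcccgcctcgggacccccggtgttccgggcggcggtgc
Nkx2-9: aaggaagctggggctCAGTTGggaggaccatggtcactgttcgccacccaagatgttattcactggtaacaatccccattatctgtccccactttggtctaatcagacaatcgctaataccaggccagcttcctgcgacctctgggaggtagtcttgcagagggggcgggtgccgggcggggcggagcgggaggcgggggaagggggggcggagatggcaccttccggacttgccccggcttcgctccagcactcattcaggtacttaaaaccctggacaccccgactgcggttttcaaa

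A set of 5 motifs was searched on both strands, where N is any base and matches of different motifs could share bases. They were picked with the values known. CANNTG was in 72.3% of all 32851 promoters, TATAAA in 13.6%, TTCNNNGAA in 8.3%, TGATGNAA in 3.97% and the hedgehog effector site TGGGTGGTC in 0.253%. The Olig2 promoter had TATAAA alone of these, the Bcl6 promoter 1 TTCNNNGAA and 1 CANNTG, and the Nkx2-9 promoter 1 CANNTG. None of the 3 held TGGGTGGTC or TGATGNAA in this window.

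Among the 42 and 16 genes past the smaller size were further genes with no overlap between sides, named after their values were seen. Higher in the Olig2-high runs were Serpine2, a secreted protease inhibitor (0.46 to 1.04), Nrn1, which promotes neurite growth (0.36 to 1.52), Tmem163, a zinc-binding membrane protein (0.34 to 1.10), and Mfsd2a, a lipid transporter (0.37 to 0.79). The sodium pump subunit Atp1b2 (0.40 to 0.54) and the guidance molecule Sema3c (0.35 to 0.64) were on the same side. Lower were Emp1, a tetraspan membrane protein (-0.47 to -1.40), and Thsd7a (-0.40 to -0.93). Emp1 reached the size of 0.5 in all 4 pairs after quantile normalization or when array medians were set equal.

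**Figure D2:**
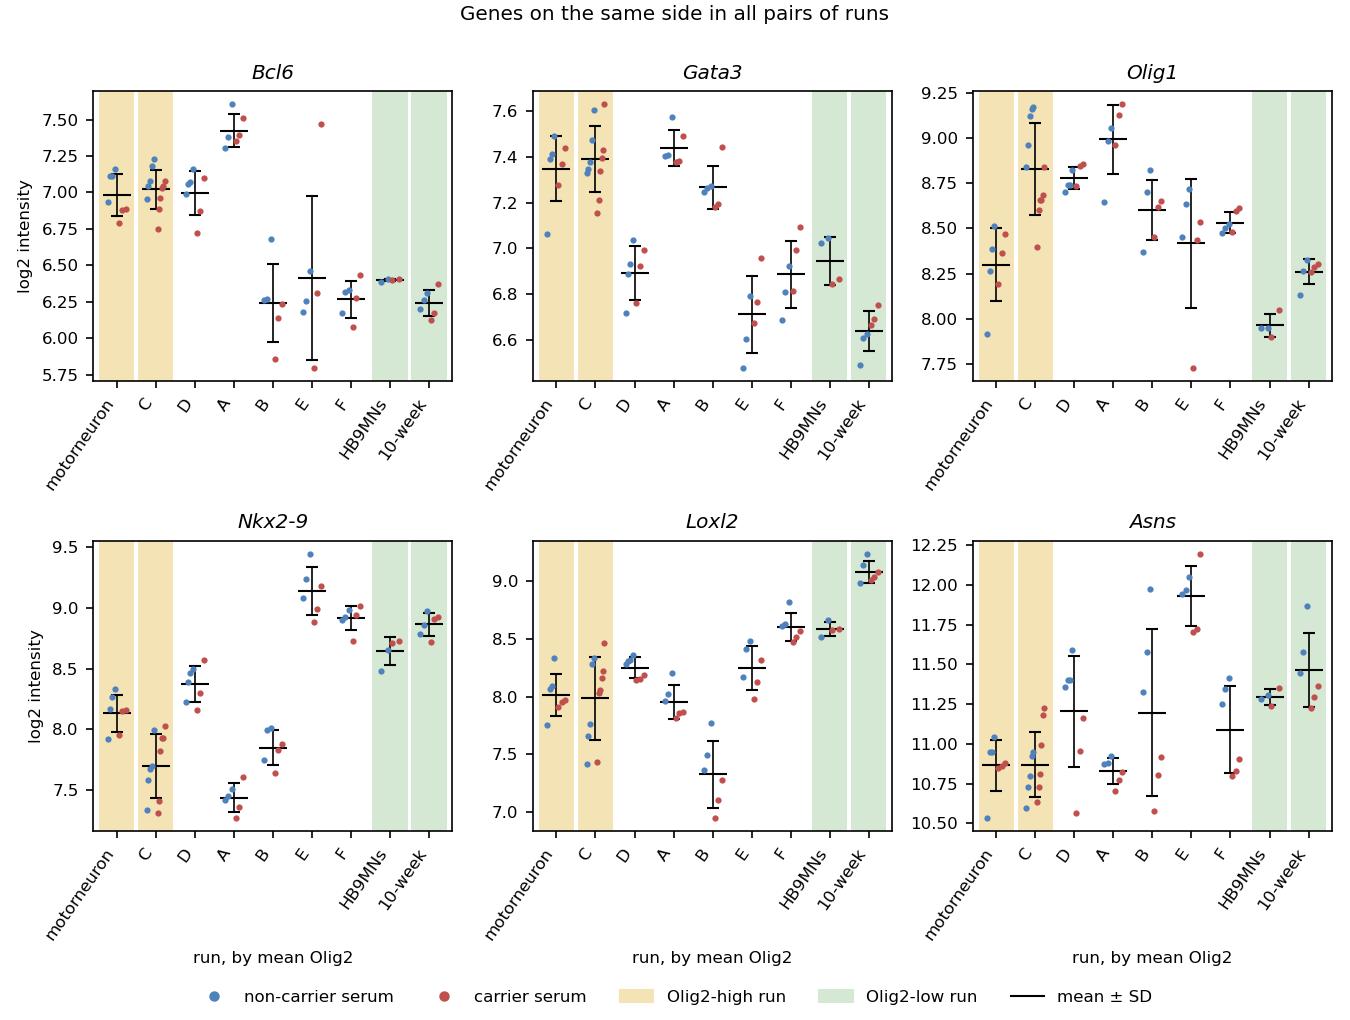
Log2 intensity (y axes) of Bcl6, Gata3, Olig1, Nkx2-9, Loxl2 and Asns in each array by run (x axes, ordered by mean Olig2), colours and bars as in the plot of the markers. Each gene has the same sign in all 4 pairs of shaded runs, while the unshaded runs reach beyond them: Bcl6 is highest in run A at 7.42 and Nkx2-9 in run E at 9.14.

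Motor neuron genes did not part the sides as a group. Of the 20 measured transcription factors and cholinergic genes, 2 were higher in all 4 pairs (10% against 8.31% of all genes). In the other direction 1 was lower (5% against 4.71%), and 17 were mixed. The list median was -0.06. Isl2, a LIM factor of postmitotic motor neurons, was the 1 lower gene, at 9.01 ± 0.20 in the motorneuron run, 9.59 ± 0.20 in C, 9.71 ± 0.18 in HB9MNs and 9.79 ± 0.11 in the 10-week run. Its differences ran from -0.78 to -0.12, and those of run C were within the spread of its arrays. Tbx20, a factor of hindbrain motor neurons, had a mean difference of -0.57 that was 0.04 in motorneuron against HB9MNs and -1.18 in C against the 10-week run. Slc10a4, a vesicular protein of cholinergic neurons, had a mean of -0.21 and Slc5a7, the choline transporter, of 0.18, each with differences of both signs. Gfra1, a GDNF receptor, was higher in all 4 pairs by 0.02 to 0.06.

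Of 16 ventral patterning factors measured, 12 had mixed signs. Olig1 and Olig2, the latter by the choice of runs, were higher in all 4 pairs (12.5% against 8.31% of all genes), and Nkx2-2 and Nkx2-9 were lower (12.5% against 4.71%). Olig1, the neighbour and paralogue of Olig2, was at 8.30 ± 0.20 in the motorneuron run, 8.83 ± 0.26 in C, 7.96 ± 0.06 in HB9MNs and 8.26 ± 0.07 in the 10-week run. The motorneuron and 10-week runs were thus within 0.03 of each other, and the arrays of the sides overlapped. Nkx2-2, which marks the domain below the motor neuron progenitors, differed by -0.04 and -0.05 from HB9MNs and by -0.90 from the 10-week run in both Olig2-high runs. Nkx6-1, needed in motor neuron progenitors, had a mean difference of 0.13 and Pax6 of 0.43, with signs that were mixed. The list median was 0.15, 0.07 after quantile normalization and -0.11 without the motorneuron run.

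Floor plate genes were high in the 10-week run rather than on the Olig2-low side. Shh ran from 7.17 over 7.38 to 7.82 in the motorneuron arrays and from 7.08 over 7.58 to 7.96 in run C. The HB9MNs arrays were at 6.90, 7.02, 7.03 and 6.85, below all those of the Olig2-high runs, whereas the 10-week arrays ran from 10.27 over 10.48 to 10.66. The differences were 0.49 and 0.62 against HB9MNs and -3.01 and -2.88 against the 10-week run, up to 8.08-fold. Foxa2 was at 7.10 ± 0.19, 6.79 ± 0.14 and 7.08 ± 0.22 in the motorneuron, C and HB9MNs runs and at 8.96 ± 0.17 in the 10-week run. The mean differences of -1.20 and -1.08 therefore rest on 1 run. Runs E and F, not compared, were also high in Shh, at 9.29 ± 0.22 and 9.68 ± 0.12, with B, D and A at 8.39, 7.99 and 7.61.

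Of 11 hedgehog pathway genes, 1 was higher in all 4 pairs (9.09% against 8.31% of all genes) and 2 were lower (18.2% against 4.71%). Gli2, the main activator at the end of the pathway, was higher by 0.22 to 0.53. Hhip, a feedback antagonist that binds hedgehog ligands, was lower by 0.04 and 0.10 than in HB9MNs and by 0.82 and 0.88 than in the 10-week run. Sufu, which holds GLI factors in the cytoplasm, differed by -0.01 to -0.27. The pathway targets Gli1 and Ptch1 had mean differences of 0.12 and -0.04 with mixed signs.

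**Figure D3:**
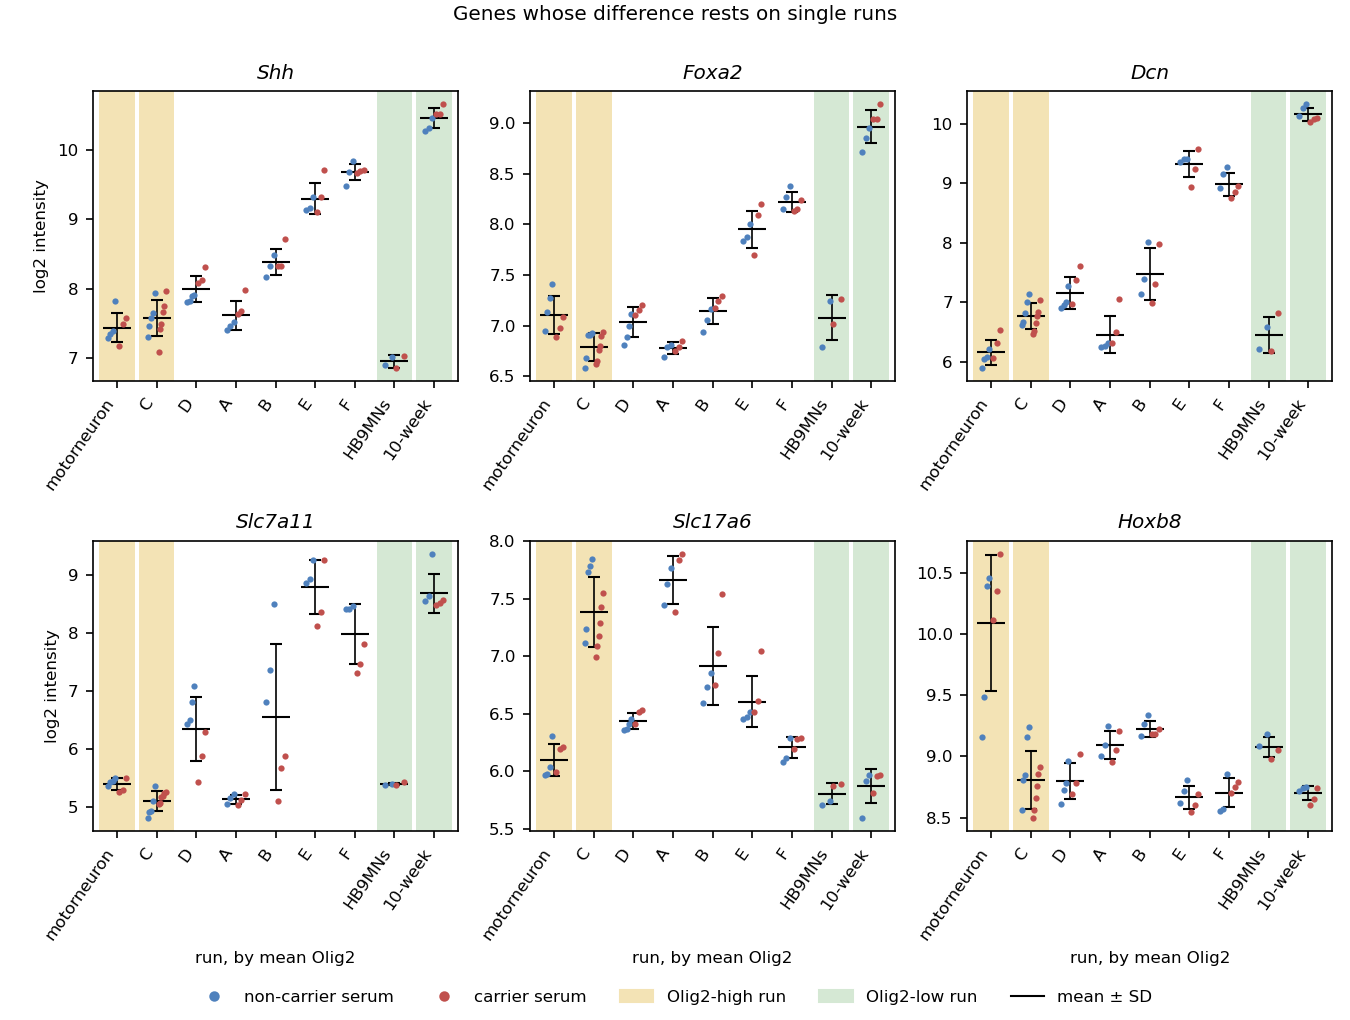
Log2 intensity (y axes) of Shh, Foxa2, Dcn, Slc7a11, Slc17a6 and Hoxb8 in each array by run (x axes, ordered by mean Olig2), colours and bars as in the plot of the markers. Shh, Foxa2, Dcn and Slc7a11 are high in the 10-week run, E and F and near the Olig2-high level in HB9MNs, Slc17a6 is high in runs C and A, and Hoxb8 is high in the motorneuron run alone, at 10.09.

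Progenitor genes were mixed: of 18, 2 were higher in all 4 pairs (11.1% against 8.31% of all genes) and 2 lower (11.1% against 4.71%). The list median was 0.01. Sox2, which maintains neural progenitors, was at 9.96 ± 0.20, 10.33 ± 0.07 and 10.08 ± 0.04 in the motorneuron, C and HB9MNs runs and at 11.00 ± 0.10 in the 10-week run, whose arrays all lay above the others. Hes1, a Notch effector that keeps cells undifferentiated, was lower in all 4 pairs by 0.12 to 0.87, at 7.57 ± 0.15, 7.73 ± 0.13, 7.85 ± 0.05 and 8.44 ± 0.07. Notch3 differed by 0.05 and 0.08 from HB9MNs and by -0.70 and -0.66 from the 10-week run. Ptprz1, a receptor phosphatase of radial glia, was higher by 0.01 to 0.74.

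Of 22 neurogenesis genes, 3 were higher in all 4 pairs (13.6% against 8.31% of all genes) and 2 lower (9.09% against 4.71%). The list median was 0.07. Neurog2, the proneural factor that drives motor neuron progenitors out of the cycle, was higher by 0.04 to 0.60, with values near 0 against HB9MNs. St18, a zinc finger factor of newborn neurons, was higher by 0.23 to 0.76, and Neurog3, found in the most ventral cord and the pancreas, was lower by 0.10 to 1.22. Neurod4 had a mean of 0.32 with mixed signs. Of 26 pan-neuronal genes, 2 were higher in all 4 pairs (7.69% against 8.31% of all genes) and 3 lower (11.5% against 4.71%). After quantile normalization 1 was higher (3.85% against 9.09%) and 6 lower (23.1% against 7.87%). The list median was 0.01. Against HB9MNs and the 10-week run, the pair medians were -0.18 and 0.02 (motorneuron) and -0.08 and 0.17 (run C). Syp, of synaptic vesicles, was higher by 0.03 to 0.29, and Cacna2d1, a calcium channel subunit, differed by -0.07 to -0.34. The neurofilament gene Nefm had a mean of -0.22 with mixed signs.

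Interneuron genes were higher in the Olig2-high runs in 7 of 25 (28% against 8.31% of all genes), and none was lower in all 4 pairs. The list median was 0.22, against 0.03 without the motorneuron run. Gata3, of V2b interneurons, was the member with no overlap between sides, at 7.35 ± 0.14 and 7.39 ± 0.14 in the motorneuron run and C against 6.94 ± 0.10 and 6.64 ± 0.09 in HB9MNs and the 10-week run. Its partner Gata2 was higher by 0.00 to 0.40, and Sox14, of the same lineage, by 0.28 to 0.53. Slc17a6, the vesicular glutamate transporter, was at 7.39 ± 0.30 in run C but ran from 5.96 over 6.03 to 6.30 in the motorneuron run, so that the latter was higher than HB9MNs (5.80 ± 0.09) and the 10-week run (5.87 ± 0.15) by only 0.29 and 0.22. Lbx1, of dorsal interneurons, was lowest of the 4 compared runs in the 10-week run, at 5.47 ± 0.25 against means of 6.27 to 6.71 in the other 3, and runs E and F, at 5.67 and 5.45, were near it.

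Neural crest genes were higher in all 4 pairs in 4 of 12 (33.3% against 8.31% of all genes), with a median of 0.12. After quantile normalization 2 were higher (16.7% against 9.09%) and 1 lower (8.33% against 7.87%), with a median of 0.04. In the pairs left without the motorneuron run 4 were higher (33.3% against 19.8% of all genes) and 5 lower (41.7% against 36.3%). Tfap2b, a factor of neural crest and dorsal neurons, was higher by 0.21 to 1.28 without overlap, Erbb3, a neuregulin receptor of crest-derived glia, by 0.14 to 0.40, and Mitf, of melanocytes, by 0.05 to 0.42. Of 17 astrocyte and oligodendrocyte genes, 2 were higher in all 4 pairs (11.8% against 8.31% of all genes) and none lower. The higher genes were Pdgfra, of oligodendrocyte progenitors, by 0.23 to 0.52 and Sox10, shared with the crest list, by 0.05 to 0.66. Gjb6 and S100b, both dim astrocyte genes, were higher in the motorneuron run and lower in C against HB9MNs, by -0.25 and -0.20. The median of 0.23 was 0.10 after quantile normalization.

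Of 31 cell cycle genes, 10 were lower in the Olig2-high runs in all 4 pairs (32.3% against 4.71% of all genes) and none was higher, and the median was -0.28. The median difference was -0.16 and -0.61 in the motorneuron run against HB9MNs and the 10-week run, and -0.02 and -0.38 in run C against the same runs. The larger part thus lay in the 10-week run, which exceeded HB9MNs, its partner on the Olig2-low side, by a median of 0.41. Ccnd2, a D-type cyclin, showed it most: 8.96 ± 0.11, 9.45 ± 0.09, 9.49 ± 0.10 and 10.69 ± 0.06 in the motorneuron, C, HB9MNs and 10-week runs, so that C and HB9MNs did not differ beyond their spread. The mitotic genes Kif11 and Plk1 had mean differences of -0.43 and -0.42 and the replication regulator E2f1 of -0.42, while Plk1 had mixed signs. Mki67, a proliferation marker, was lower by 0.02 to 0.45.

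Of the Hox genes, none of 15 in paralog groups 1 to 5 was higher in all 4 pairs and 1, Hoxa5, was lower, by 0.04 to 0.33. Of 12 genes of groups 6 to 9, which set brachial and thoracic identity, 5 were higher (41.7% against 8.31% of all genes) and none lower, with a median of 0.22, 0.11 after quantile normalization and 0.06 without the motorneuron run. Hoxa7 was higher by 0.24 to 0.59 without overlap. Hoxc6, of limb-level motor neurons, was at 7.67 ± 0.10, 7.76 ± 0.15 and 7.69 ± 0.09 in the motorneuron, C and HB9MNs runs and at 6.35 ± 0.07 in the 10-week run. Hoxb8 was high in the motorneuron run alone, where its 7 arrays ran from 9.15 over 10.35 to 10.66, the widest spread of any of these runs. None of 12 genes of groups 10 to 13 was on 1 side in all 4 pairs. Their median of 0.16 was -0.13 without the motorneuron run, and Hoxc12, Hoxb13, Hoxc13 and Hoxc10 were all higher in that run and lower in C against HB9MNs. Of 15 retinoic acid response genes, 2 were lower in all 4 pairs (13.3% against 4.71% of all genes) and none was higher. The lower genes were Rdh10, by 0.03 to 0.19, and Meis2, by 0.03 to 0.17. Cyp26b1, which breaks down retinoic acid, differed by -0.15 and -0.66 from HB9MNs and by 1.60 and 1.08 from the 10-week run, and Crabp2, a retinoic acid carrier, by -0.25 and -1.01 and by 0.56 and -0.20. The list median was 0.03.

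Over the 4 pairs, genes of other tissues gave no common direction, and the 10-week run again stood out. Without the motorneuron run, 16 of 18 endoderm and epithelial genes (88.9%) and 15 of 20 pluripotency genes (75%) were lower in both remaining pairs. The shares were 61.1% of mesenchyme and muscle genes and 60% of endothelial and blood genes, beside 36.3% of all genes. In the same order of lists, 0%, 5%, 11.1% and 6.67% were higher in both, beside 19.8% of all genes. Of 18 mesenchyme and muscle genes, 2 were higher in all 4 pairs by at most 0.09 and 1, the fibronectin gene Fn1, was lower, by 0.19 to 1.58. Dcn, which encodes decorin, was at 6.16 ± 0.21, 6.77 ± 0.22 and 6.45 ± 0.31 in the motorneuron, C and HB9MNs runs and at 10.16 ± 0.12 in the 10-week run, up to 15.9-fold higher there. Runs E and F, not compared, were at 9.32 and 8.98. Of 18 endoderm and epithelial genes, 1 was lower in all 4 pairs, Epcam, by 0.07 to 0.46. Foxa1, shared by endoderm and floor plate, differed by 0.58 and 0.01 from HB9MNs and by -1.54 and -2.11 from the 10-week run. Krt19, a keratin, differed most against HB9MNs, by -0.10 and -1.07. Of 15 endothelial and blood genes, 1 was higher in all 4 pairs, and Cdh5, of endothelium, was -0.71 and -1.38 against the 10-week run. No gene of the 20 pluripotency genes was on 1 side in all 4 pairs. Their median was 0.09, -0.02 after quantile normalization and -0.22 without the motorneuron run. Their part in the differences of neural genes was not tested.

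Targets of ATF4 and CHOP, the factors that switch on amino acid synthesis and transport when translation is curbed under stress, lay on the lower side in part. Of 24 genes, none was higher in the Olig2-high runs in all 4 pairs and 9 were lower (37.5% against 4.71% of all genes), with a median of -0.38. The pair medians were 0.05 and -0.54 for the motorneuron run and -0.23 and -0.84 for run C against HB9MNs and the 10-week run. HB9MNs was itself 0.57 below the 10-week run. Without the motorneuron run, 23 of the 24 (95.8%) were lower in both remaining pairs, as were 36.3% of all genes. Asns, which makes asparagine, was the member with no overlap: 10.87 ± 0.16 and 10.87 ± 0.21 in the Olig2-high runs against 11.29 ± 0.05 and 11.46 ± 0.23, with differences of -0.42 to -0.60. The cystine transporter gene Slc7a11 was at 5.40 ± 0.10, 5.11 ± 0.16 and 5.40 ± 0.02 in the motorneuron, C and HB9MNs runs and at 8.68 ± 0.34 in the 10-week run, up to 11.9-fold higher there, and at 8.79 and 7.98 in runs E and F. Chac1, which degrades glutathione, was at 9.23 ± 0.17, 8.88 ± 0.22, 9.08 ± 0.04 and 10.83 ± 0.32. The amino acid transporter Slc7a3 and the folate enzyme Mthfd2 had the same pattern, with differences of up to -2.56 and -1.86 from the 10-week run and of both signs against HB9MNs. Atf4 itself had a mean of -0.19 and Ddit3, which encodes CHOP, of -0.20, with mixed signs.

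The promoters of Asns and Chac1 are shown because their genes stand for the members that differed in all pairs and those that differed from the 10-week run mainly. Capitals mark TGATGNAA, the composite C/EBP and ATF element, which in Chac1 is on the opposite strand. Asns lies at chr6:7693160-7693459, minus strand, and Chac1 at chr2:119350992-119351291, plus strand. The element was in 9 of 21 promoters of the list found in the table (42.9%) and in 3.97% of all promoters, which describes the list and not these arrays.
Asns: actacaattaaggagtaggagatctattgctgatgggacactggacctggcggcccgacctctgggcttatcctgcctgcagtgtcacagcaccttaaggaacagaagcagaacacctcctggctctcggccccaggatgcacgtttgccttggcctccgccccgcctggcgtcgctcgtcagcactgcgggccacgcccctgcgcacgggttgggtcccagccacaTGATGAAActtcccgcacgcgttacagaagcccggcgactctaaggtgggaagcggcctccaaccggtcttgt
Chac1: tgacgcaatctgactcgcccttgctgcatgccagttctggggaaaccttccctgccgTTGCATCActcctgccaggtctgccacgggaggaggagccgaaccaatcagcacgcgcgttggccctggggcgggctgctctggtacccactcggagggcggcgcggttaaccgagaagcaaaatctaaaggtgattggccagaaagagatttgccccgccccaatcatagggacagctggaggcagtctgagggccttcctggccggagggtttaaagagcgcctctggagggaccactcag

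Hypoxia-inducible genes and p53 targets had none on 1 side in all 4 pairs, among 18 and 14. The hypoxia median was -0.10, with -0.23 and -0.44 against HB9MNs and 0.26 and 0.07 against the 10-week run. Adm, a vasodilator peptide, differed by -0.84 and -0.73 from HB9MNs and by 0.43 and 0.54 from the 10-week run, and Bnip3, of mitophagy, by -0.00, -0.47, 0.93 and 0.47. Cdkn1a, the p21 inhibitor of the cell cycle and a p53 target, differed by 0.25 and -0.32 from HB9MNs and by 1.10 and 0.53 from the 10-week run. The p53 list median was 0.10.

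**Figure D4:**
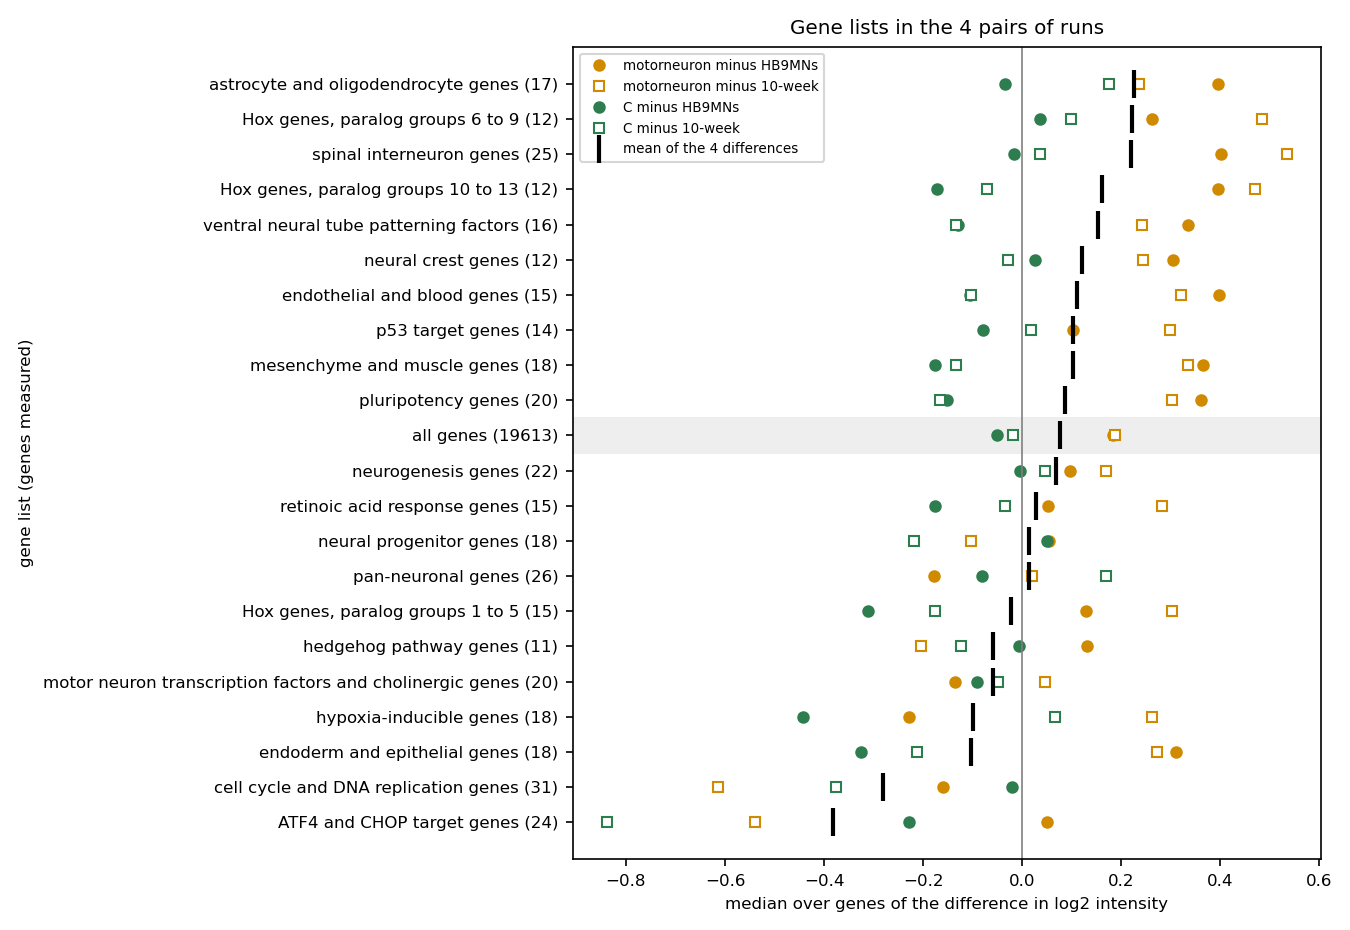
Median over each gene list (y axis, with the genes measured) of the difference in log2 intensity (x axis) in each of the 4 pairs of runs, with circles for HB9MNs and squares for the 10-week run as the Olig2-low run, and of the mean of the 4 differences (black). Pairs with the motorneuron run (orange) lie to the right of those with run C (green) in most lists, as over all genes at 0.19 and -0.02 against the 10-week run, and the ATF4 and cell cycle lists lie furthest left at -0.38 and -0.28.

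Whether a gene tracks Olig2 was tested on the variation within the runs not compared, which the choice by run means did not use. Within runs A, B, D, E and F (31 arrays), the slope of each gene on Olig2 was fitted with limma, with run and serum in the model. None of 19612 genes had a positive (0%) or negative (0%) slope with an adjusted p under 0.05. The smallest adjusted p was 0.0918, and 2983 genes had an unadjusted p under 0.05. Olig1 was among those with that smallest value, at a slope of 1.43 ± 0.26 (SE) log2 units for each log2 unit of Olig2. Mnx1 had 0.87 ± 0.21 (limma adjusted p = 0.124), Isl1 0.25 ± 0.11 (adjusted p = 0.273) and Lhx3 0.45 ± 0.23 (adjusted p = 0.348). The estimates for Mnx1 and Isl1 were above 0 within runs, while their mean differences between sides were -0.02 and -0.13. Among the counted genes, Bcl6 had 0.95 ± 0.54 (adjusted p = 0.399). Loxl2, lower in the Olig2-high runs, had a slope of 0.77 ± 0.20 in the other direction (adjusted p = 0.125), and Nkx2-9 of 0.26 ± 0.26 (adjusted p = 0.674). Slc26a2, a sulfate transporter gene, had 1.02 ± 0.19 and Uspl1, a SUMO protease gene, -0.65 ± 0.13, both at the smallest adjusted p.

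The count of 0 did not hold under every setting. Without the dimmer genes, which left 9806 in the test, 39 slopes were positive and 9 negative, and without run B 85 and 14. A model without serum gave 365 and 131. Olig2 itself was lower on average with carrier serum in runs B, D, E and F, though not in A. A slope in that model therefore cannot be told apart from a serum change. Leaving out 1 array gave at most 17 positive and 4 negative: 5 positive without B carrier replicate 1, 17 and 2 without D carrier replicate 2, and 7 and 4 without E carrier replicate 1. The count stayed at 0 without any other single array. It also stayed at 0 with array medians set equal, quantile normalization, array weights or the array median as a covariate. In all of the first 3 settings 9 genes were called: Olig1, Mnx1, Ak4, Atxn1, Ccdc32, Lmo4, Megf11, Smtnl2 and Vhl, named after their values were seen. Olig1 then had adjusted p of 0.0265, 0.0366 and 0.0236 and Mnx1 of 0.0461, 0.0478 and 0.0106, all from limma. These settings are among those that gave calls and reuse most of the same arrays. Being called in all of them is thus no independent support. Loxl2 was called without serum in the model, at 1.13 (limma adjusted p = 0.00328).

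In the fit of all genes no list had a gene called by slope. Without serum in the model, 9 of the 18 hypoxia genes (50%), 8 of the 24 ATF4 and CHOP targets (33.3%) and 2 of the 20 motor neuron genes (10%) were called, all positive, beside 2.53% of all genes in either direction. These shares mix serum changes with slopes on Olig2. Without the dimmer genes 3 of 15 hypoxia genes, Slc2a1, Slc2a3 and Pdk1, were called, beside 0.489% of all, and no ATF4 and CHOP target was. Without run B no gene of the hypoxia or the ATF4 and CHOP list was called. Of the 20 motor neuron genes 18 had a positive slope, with a median of 0.21, beside 10381 of 19612 genes and a median of 0.03 over all. Of the 24 ATF4 and CHOP targets 22 had a positive slope, with a median of 0.51, opposite in sign to their median between sides. Of the 18 hypoxia genes 16 were positive, with a median of 0.39. Chac1 had 2.07 ± 0.73 and Atf4 0.91 ± 0.28 (limma adjusted p = 0.192 and 0.154). Of the 31 cell cycle genes 6 were positive, with a median of -0.26, the same direction as between sides. The genes of a list share arrays, and the 5 runs differ in their spread of Olig2, from an SD of 0.05 in run A to 0.17 in run B.

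**Figure D5:**
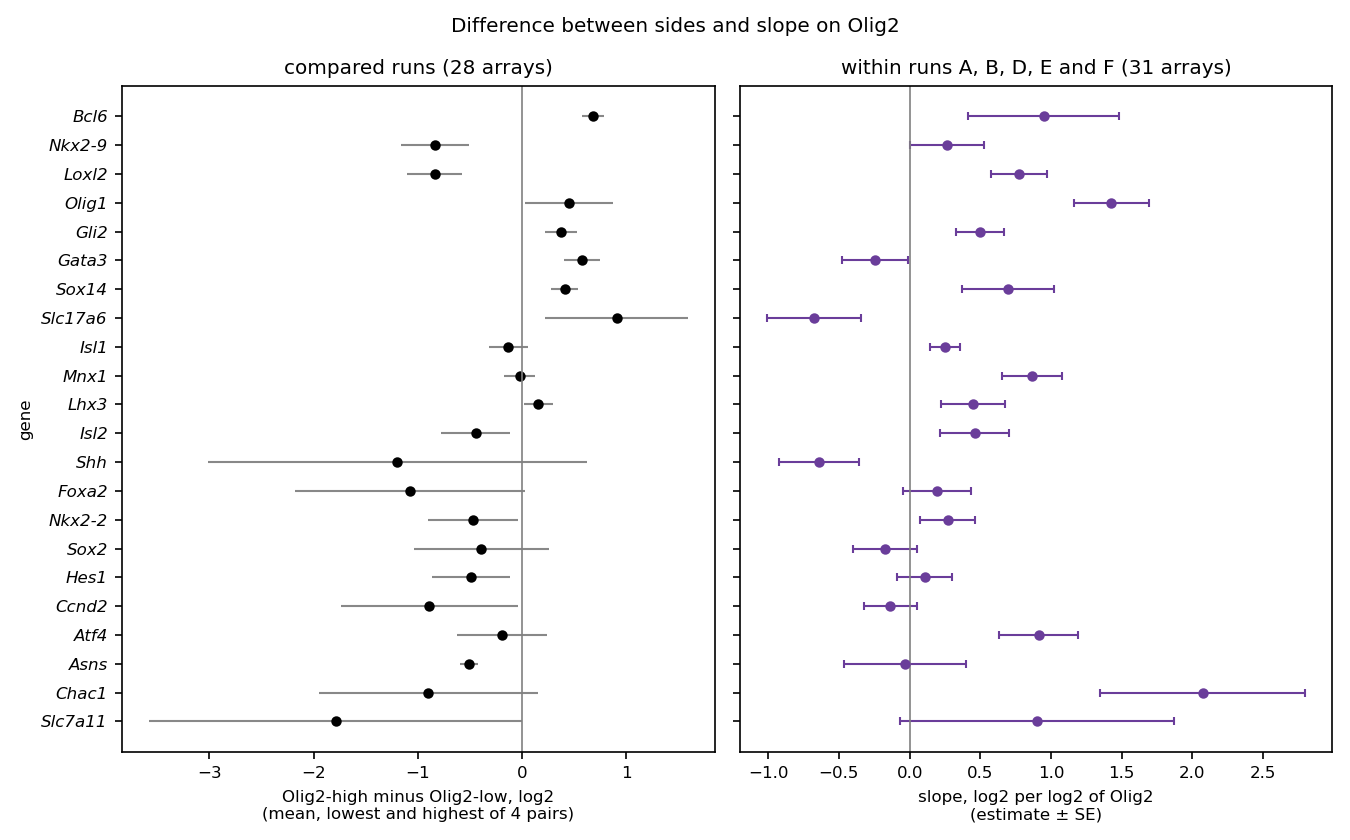
For 22 genes (y axis), the Olig2-high minus Olig2-low difference in log2 intensity with the lowest and highest of the 4 pairs (left, 28 arrays), and the slope on Olig2 ± SE within the 5 other runs (right, 31 arrays). Olig1 is to the right in both, with a mean difference of 0.45 and a slope of 1.43, while Loxl2 has -0.84 and 0.77; no slope passed an adjusted p of 0.05.

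Carrier serum was compared with non-carrier serum within the 4 runs, a contrast that does not depend on their choice by Olig2. No gene of 19613 was higher (0%) or lower (0%) at a limma adjusted p under 0.05. The smallest adjusted p was 0.9995, and 708 genes had an unadjusted p under 0.05. The change did not differ detectably between sides in any gene (0%), where the smallest adjusted p was 0.9997 and 543 genes had an unadjusted p under 0.05. Olig2 changed by -0.05 ± 0.05 (SE), Mnx1 by 0.04 ± 0.06, Lhx3 by -0.06 ± 0.04 and Isl1 by 0.10 ± 0.03. Of the 24 ATF4 and CHOP targets, 21 had a lower mean with carrier serum, as had 9190 of all 19613 genes. None of the 24 was called, and the genes of a list share arrays. Their median change was -0.07, beside 0.00 over all genes. That median was 0.03 in the Olig2-high and -0.16 in the Olig2-low runs. Slc7a3 had the difference 0.16 ± 0.09 in the former and -0.32 ± 0.12 in the latter, which differed by 0.48 ± 0.15 without passing the test. Without the HB9MNs run 1 gene passed, the zinc finger gene Zfp963, at -0.50 (limma adjusted p = 0.0247), named after its value was seen. The 5 carrier and 5 non-carrier arrays of the Olig2-low side limit the precision.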

How the data were processed

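RNA of whole embryoid bodies was hybridised to Affymetrix Mouse Exon 1.0 ST arrays, 1 array per sample. The authors made the deposited values by RMA (background correction, normalisation over arrays and summary of probes) and took a gene as the mean of its exons. The deposited values are linear intensities of 19613 genes in 59 arrays. The submitters' processing notes name RMA and Affymetrix Expression Console as tools. Arrays found to be outliers by a Grubbs' test had been removed by the authors. No column was left unused (0). Averaging exons hides changes in splicing, and RMA draws arrays of different batches to a like distribution without removing batch differences.

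Intensities were taken to log2 with no pseudocount (0) and no gene was filtered out. Runs were read from titles and labels. Run means were fitted with lmFit of limma 3.58.1 in R 4.3.3, with serum as a covariate, and the 4 differences between an Olig2-high and an Olig2-low run were taken from that fit with no test. Slopes on Olig2 (run and serum in the model) and carrier serum changes (run in the model) were tested with eBayes, all tests being two-sided, and p-values were adjusted after Benjamini and Hochberg across the whole table (threshold 0.05). The steps were tested on simulated data. For the run comparison the simulated runs had no batch differences, so the counting rule was not checked against them. The named genes were the 4 markers, counted genes (10 in each direction at most), up to 4 members of each list with the largest mean difference, and 5 slopes or serum changes in each direction at most among those called. Others were named after their values were seen, whether or not they are marked so, among them Nkx6-1, Pax6, Ptch1, Atf4 and Ddit3. Further ones were list members on 1 side in all pairs. The runs, the gene lists and the alternatives were chosen with earlier results of these data known. The 21 lists hold 390 genes, each counted once, of which 377 were measured. A few genes counted in the lists are not reported here by name. Symbols written with dots for hyphens were restored. Promoters came from RefSeq on GRCm38.p6. The alternatives were array medians, quantile normalization, a filter on dim genes, other sizes, other models, and fits without each array or run. Arrays give no read depth, and their number limits the precision. Plots were drawn with matplotlib 3.10.9 in Python 3.11.15.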

Additional observations from a re-analysis of the deposited data

Results flagged for a closer look

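In the motorneuron run, 1 of the 4 non-carrier arrays stood off from the other 3 in Shh: replicate 1 was at 7.8205 on the log2 scale and the nearest array at 7.3824. The gap exceeded the 95% critical value of Dixon's ratio for 4 samples. It was the 1 case in 69 checks of a gene within a group, and chance flags about 1 in 20 such groups. Groups of fewer than 4 arrays were not checked, which leaves out every group of the Olig2-low runs and the motorneuron carrier group.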

How the results depend on the processing

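Counts of genes past 0.5 in all 4 pairs rested on few genes (2 higher, 2 lower). With array medians set equal they were 1 and 4, after quantile normalization 1 and 2, in both cases without Bcl6. Without dim genes, which leaves out Bcl6, they were 1 and 2. A size of 0.25 gave 42 and 16, a size of 1 gave 0 and 0, and 2 SD of the gene within runs gave 57 and 32. Without the motorneuron run there were 50 and 30, without C 1361 and 228, without HB9MNs 84 and 275 and without the 10-week run 25 and 16, where 2 pairs in place of 4 had to pass. With run C taken as 2 runs 1 gene, Nkx2-9, was lower. Leaving out single arrays gave 2 to 3 higher and 1 to 3 lower, and leaving out the array of each run that correlated least with its run, an alternative chosen after seeing the data, 2 and 3.

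Positive and negative slopes on Olig2 (0 and 0) became 39 and 9 without dim genes, 365 and 131 without serum in the model, 2115 and 1617 without runs in the model, 5 and 1 with trend and robust, and 85 and 14 without run B. Single arrays gave 0 to 17 and 0 to 4. The slope changed sign without runs in the model for Mnx1 (-0.30), Nkx2-9 (-2.07) and Loxl2 (-0.88), with array weights for Nkx2-9 (-0.11), without run E for Lhx3 (-0.0547), and without the least correlated arrays for Bcl6 (-0.11) and Nkx2-9 (-0.0651). Apart from the number of genes or runs that a setting itself takes away, the cause was not tested.

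Counts of serum changes were 0 to 0 without single arrays and 0 in the other settings tried, except for 1 lower gene without the HB9MNs run. Without run C the serum change of Olig2 was 0.00899 and that of Lhx3 0.0351, both opposite in sign. Arrays of different serum with the same replicate number showed no steady joint deviation (r from -0.13 to 0.33, above 0.1 in 1 of 3 motorneuron pairs). Groups of so few arrays cannot decide whether the numbers pair the samples. A fit with the replicate number as a block gave 0 genes, with a smallest adjusted p of 0.684.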
